A study of Mus musculus with 20 samples.

Results

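Myoglobin (*Mb*) and cytoglobin (*Cygb*) are the heme globins that heart tissue makes for itself, outside the red blood cell. Both were taken from the count table by gene name, so that they make up 2 of the 23420 genes listed, and both were among the 13590 genes with enough reads to be tested. The hearts came from 20 male wild type C57BL/6 mice (C57BL/6J in the study's methods) aged 9 weeks, each heart being a separate animal. From 3 weeks of age and for 6 weeks, 10 mice received a control diet and 10 received an iron-deficient diet. The second group is called IDA here because the study describes these mice as iron deficient and anemic. For the iron-deficient diet, 1 field of the labels states less than 2 ppm iron and another more than 2 ppm. The study's methods give it a range that starts at 2 ppm, and describe the control diet as iron-adjusted, with far more iron. The study left out 1 mouse of each diet for contamination without naming it in its text, so all 20 were kept here. The samples are whole heart, so the RNA of all its cell types was measured together, and a change in the number of cells of a type cannot be told apart from a change in RNA per cell.

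Myoglobin binds oxygen at a heme iron in cardiomyocytes and in oxidative skeletal muscle. It stores oxygen, eases its passage to the mitochondria, and also reacts with nitric oxide. Its transcription is known to respond to MEF2 factors, to calcineurin and NFAT signaling, and to the coactivator PGC-1α. Cytoglobin is a relative found in fibroblasts, pericytes and similar supporting cells of most organs. It removes nitric oxide, and needs an electron donor such as cytochrome b5 with its reductase to do so repeatedly.

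In the mm10 annotation used for counting, *Mb* lies on the minus strand of chromosome 15 (chr15:77015487-77050668) with 4 exons that add up to 1252 bases. The most distant exon, of 144 bases (chr15:77050525-77050668), overlaps an exon of *Apol6*, and counting did not use strand. *Apol6* itself averaged 1.50 CPM (counts scaled to a common library size, as described below) in the control group and 1.37 CPM in the IDA group. *Cygb* lies on the minus strand of chromosome 11 (chr11:116645595-116654313), also with 4 exons, which add up to 2331 bases and overlap no other gene in the table. The longest annotated transcript of *Mb* has 1104 bases with a GC content of 54.8%, and that of *Cygb* has 2331 bases with 58.8%.

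A promoter window of *Mb* is shown because a group of its known regulators is described below. The RefSeq table (build GRCm38.p6) gives the following 250 bases on the minus strand, chr15:77022788-77023037, directly upstream of the exon at chr15:77022489-77022787. The table holds a second *Mb* window, chr15:77050669-77050918, upstream of the exon that overlaps *Apol6*, which also has 2 E-boxes and is not printed. Capitals mark the matches to CANNTG, the E-box read by bHLH factors such as the myogenic regulators.
Mb promoter: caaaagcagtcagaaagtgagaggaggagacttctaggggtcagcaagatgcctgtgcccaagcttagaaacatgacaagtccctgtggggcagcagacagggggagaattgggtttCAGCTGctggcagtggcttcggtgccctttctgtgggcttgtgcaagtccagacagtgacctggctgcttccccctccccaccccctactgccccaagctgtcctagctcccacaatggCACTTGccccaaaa
The window shown holds 2 E-boxes, and 66.2% of the 32851 promoter windows of this length in the table hold at least 1. It holds no match to ACGTG, the core letters of the hypoxia response element (either strand, present in 16.6% of all windows), and none to the MEF2 consensus (2.92% of all windows). A match or its lack describes these letters in this window only.

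The depth of the hearts differed between the diets. Totals ran from 6797180 to 8960688 read pairs in control hearts and from 6682177 to 7833916 in IDA hearts, and the mean control total was 1.11 times the mean IDA total. A count and a CPM can therefore move apart, and both are given below. CPM values are scaled to each heart's total with the TMM factors of edgeR.

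*Mb* gave almost the same number of read pairs in every heart. The counts ran from 1769 to 1798 in control hearts with a median of 1780.5, and from 1774 to 1845 in IDA hearts with a median of 1818.5. The means were 1780.5 ± 9.44 and 1818.7 ± 21.6 (SD, n = 10 in each group), a difference of 2.15%. Small as it was, this step was larger than the spread between mice: 9 of 10 IDA hearts lay above every control heart, and the exception, IDA mouse 7 with 1774 read pairs, lay within the control range. Divided by the exonic length, the values were 1.42 ± 0.00754 read pairs per base in control hearts and 1.45 ± 0.0172 in IDA hearts, a difference of 0.0305 (two-sided permutation test, p = 0.00025).

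**Figure D1:**
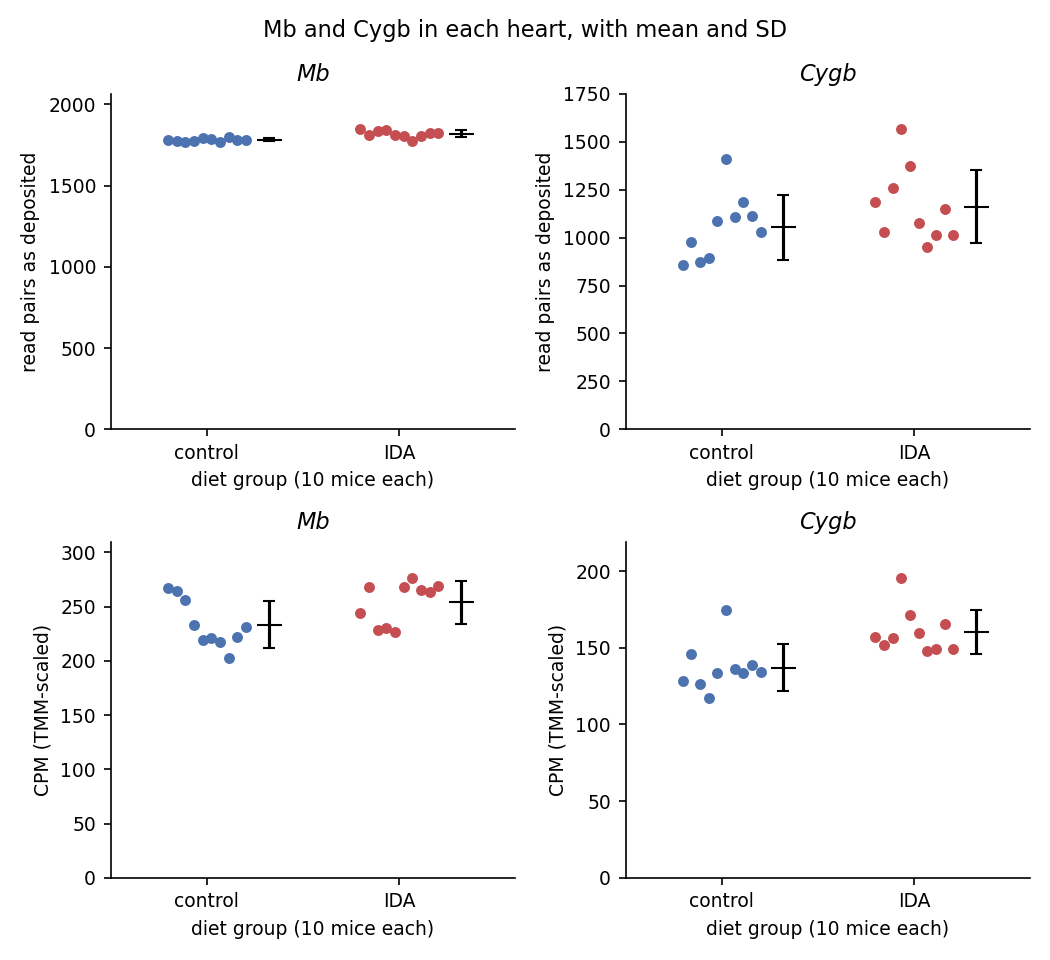
Each point is 1 heart, with read pairs as deposited in the upper panels and TMM-scaled CPM in the lower panels, and the bar beside each group is the mean ± SD of 10 mice. The *Mb* counts form nearly flat lines between 1769 and 1845, whereas the *Mb* CPM values spread from 202 to 276 and the *Cygb* counts from 856 to 1564.

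Scaled to depth, the picture of *Mb* was wider and the groups overlapped. CPM ran from 202 to 267 with a median of 227 in control hearts, and from 226 to 276 with a median of 265 in IDA hearts. The means were 233.5 ± 21.9 and 253.9 ± 19.5 CPM, a difference of 8.76%. The order of the hearts in CPM was largely the reverse of their depth. Control mouse 8, the deepest heart, had the highest *Mb* count of its group, 1798, and the lowest CPM of all, 202. IDA mouse 7 had the lowest count of its group and the highest CPM of all. In edgeR's quasi-likelihood test *Mb* was higher in IDA hearts by a log2 fold change of 0.12 (SE 0.05, adjusted p = 0.0477), with a 95% interval from 0.02 to 0.23. In these data 35% of all tested genes were called higher at that threshold and 32.5% lower, so that the call of both members as higher is set against 35%, and the median log2 fold change over all of them was 0.02. DESeq2 gave *Mb* a log2 fold change of 0.11 (adjusted p = 0.0395).

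The log2 CPM difference of *Mb* has a count term and a depth term, and the depth term is the same for every gene. Its mean log2 count differed between the diets by 0.03, while the mean log2 of the scaled library size was lower in IDA hearts by 0.09 (-0.09), and the log2 CPM difference of 0.12 is the sum of these. The call was not stable. With the log2 library total as a covariate the log2 fold change was -0.04 (edgeR, adjusted p = 0.158), and with a per-mouse trend on gene length removed it was -0.18 (edgeR, adjusted p = 0.0265), past the threshold in the opposite direction. Across the 100 fits that each left out 1 mouse of each diet, the log2 fold change lay between 0.08 and 0.16 and passed the threshold in 40. It never passed without control mouse 8, and always passed without control mouse 1 or control mouse 2.

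The spread of the *Mb* count was below that of random counting. Counting error alone would give a mean of this size an SD of 42.2 read pairs in control hearts and 42.6 in IDA hearts, against 9.44 and 21.6 measured. As a ratio of variance to mean, where random counting gives a value of 1 and differences between mice add to it, *Mb* stood at 0.0501 in control hearts, the lowest of the 13590 tested genes, and at 0.256 in IDA hearts, where it was number 14 from the bottom. The coefficient of variation was 0.53% in control and 1.19% in IDA hearts. The table was counted after the study had removed duplicate read pairs, a step that keeps 1 of any set of read pairs taken as copies of each other. Its part in the narrow spread of *Mb* was not tested, since counts from before that step were not analysed here.

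*Mb* stood near the top of the table in read pairs per base. Its mean of 1.44 read pairs per base placed it at number 53 of the tested genes, and 51 of the 22636 genes of at least 200 bases lay above it. The highest was *Myl2*, the regulatory light chain of ventricular myosin, at 2.16 read pairs per base, followed by *Tnni3*, cardiac troponin I, at 1.92, *Tnnt2*, cardiac troponin T, at 1.91, *Myl3*, a myosin essential light chain, at 1.82, and *Actc1*, cardiac alpha actin, at 1.82. The highest gene of each heart stood between 2.06 and 2.39. *Mb* was at 66.7% of the mean of *Myl2*. *Tnnt2* has the same exonic length as *Mb*, 1252 bases, and its level per base was 1.92 in control and 1.90 in IDA hearts.

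**Figure D2:**
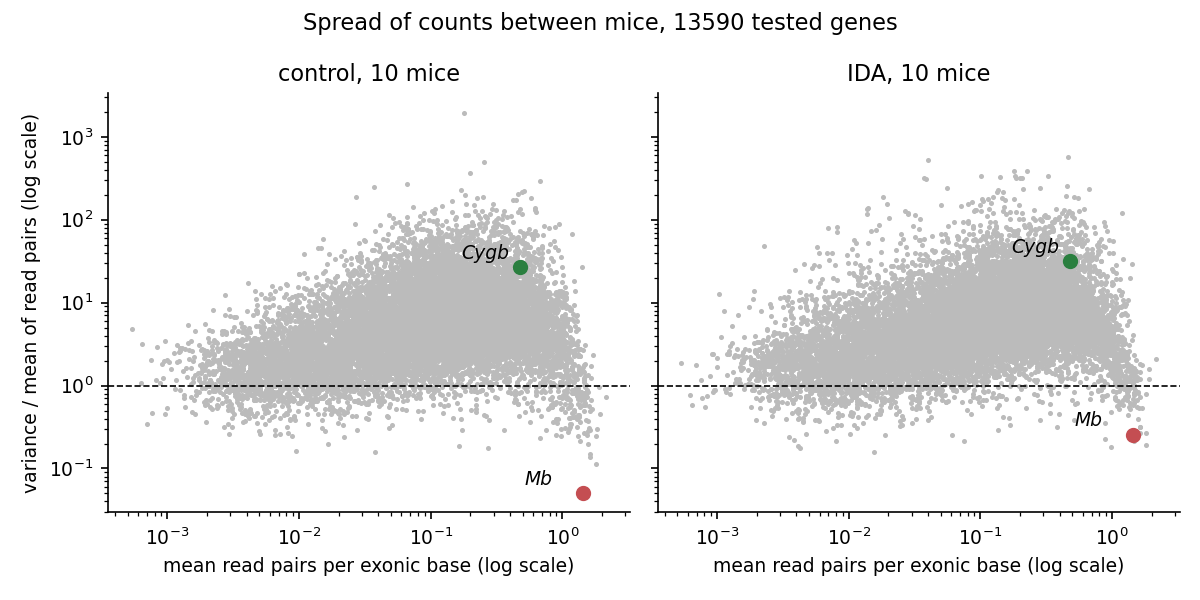
Each grey point is 1 of the 13590 tested genes, with mean read pairs per exonic base on the x axis and the variance of its read pairs between 10 mice divided by their mean on the y axis, both on log scales, and the dashed line at 1 is the value of random counting. The cloud turns down near 1 read pair per base, where *Mb* is the lowest point in control hearts at 0.0501, while *Cygb* lies well above the line at 27.0 and 31.4.

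Genes as dense as *Mb* shared these features. Of the 270 tested genes with at least 1 read pair per base, 36.3% had a variance below their mean in control hearts and 23.3% in IDA hearts, compared with 1.33% and 0.862% of the 5567 genes between 0.1 and 0.5, the range that holds *Cygb*. In the dense group 192 genes, or 71.1%, were called higher in IDA hearts and 2 were called lower. Their median log2 fold change was 0.15 and their median difference in log2 count was 0.06, against 0.12 and 0.03 for *Mb*, so *Mb* stood slightly below the middle of its own density class. Over the 10 control hearts the log2 count of a dense gene rose by a median of 0.17 per unit of log2 library total, where 1 would be in proportion to depth. The value was 0.03 for *Mb* and 1.09 for *Cygb*, and the median was 0.96 in the range from 0.1 to 0.5.

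**Figure D3:**
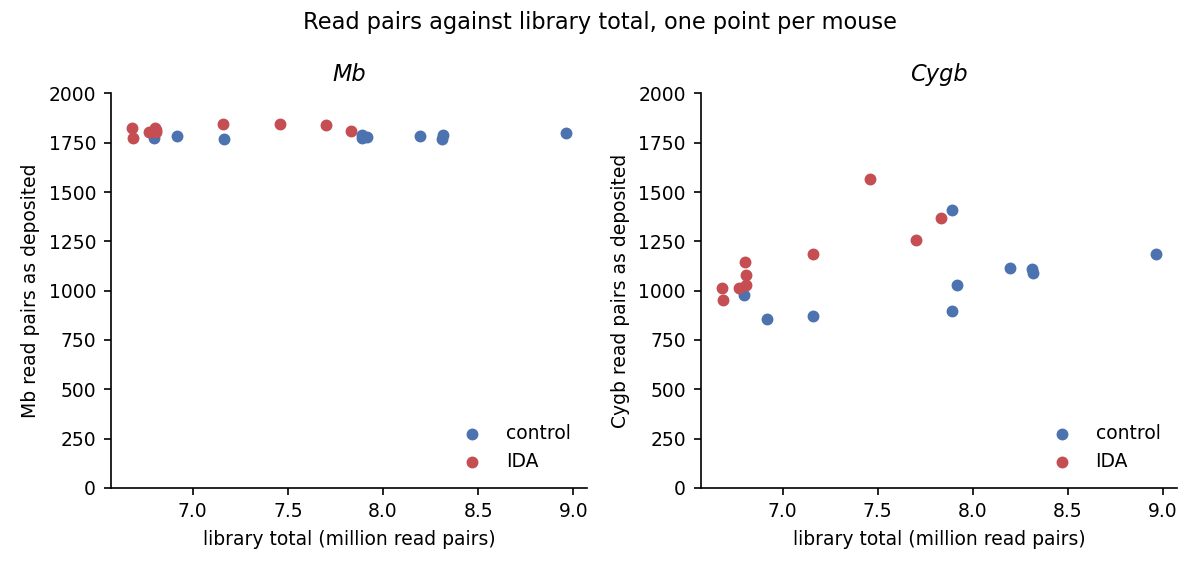
Each point is 1 heart, with its library total on the x axis and the read pairs of the gene on the y axis, which starts at 0. *Mb* stays between 1769 and 1845 over totals from 6797180 to 8960688 in control hearts and 6682177 to 7833916 in IDA hearts, whereas *Cygb* runs from 856 to 1564.

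The genes most like *Mb* followed depth in the same way. Over 20 hearts, after the mean of each diet was subtracted, its log2 CPM correlated best with *Atp5b* (r = 0.997) and *Slc25a4* (r = 0.997), followed by *Hsp90ab1*, *Mdh2* and *Atp5a1* (r = 0.993 for each). *Atp5b* and *Atp5a1* encode subunits of ATP synthase, *Slc25a4* the adenine nucleotide carrier of cardiac mitochondria, *Mdh2* mitochondrial malate dehydrogenase and *Hsp90ab1* a cytosolic chaperone. All 5 had between 1.48 and 1.81 read pairs per base. The log2 CPM of *Mb* correlated as closely with the inverse of the scaled library size itself (r = 0.996), whereas *Cygb* did not (r = -0.39). These values describe the 20 libraries, whose depth enters every CPM.

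*Cygb* varied far more between hearts. Its counts ran from 856 to 1411 in control hearts with a median of 1059.5, and from 951 to 1564 in IDA hearts with a median of 1112. The means were 1054 ± 169 and 1161 ± 191 read pairs, and the groups overlapped along most of their range, with 1 IDA heart above every control heart. Per exonic base the values were 0.452 ± 0.0723 and 0.498 ± 0.0820. The difference in means of 0.0456 did not pass (two-sided permutation test, p = 0.204). The ratio of variance to mean was 27.0 in control and 31.4 in IDA hearts, far above random counting.

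After scaling to depth, *Cygb* was higher in IDA hearts with little overlap. CPM ran from 118 to 175 in control hearts with a median of 134, and from 148 to 195 in IDA hearts with a median of 156. Every IDA heart lay above 9 of the 10 control hearts, and the exception was control mouse 6 at 175 CPM. The means were 137 ± 15.3 and 160 ± 14.5 CPM, a difference of 17.1%. The log2 fold change was 0.23 (SE 0.06, adjusted p = 0.00189 in edgeR's quasi-likelihood test), with a 95% interval from 0.11 to 0.35, and 0.22 in DESeq2 (adjusted p = 0.00127). *Cygb* had p below 0.01 in both packages, as did 8131 of the tested genes over all 20 hearts, and *Mb* did not. The study used the same rule without 1 mouse of each diet. It reported far fewer genes, most of them lower in the IDA group. At the adjusted threshold of edgeR, 4761 genes were called higher here and 4416 lower. Leaving out 1 mouse of each diet gave 8572 to 9379 calls at that threshold. The gene count of the study was not reproduced, and the reason was not tested. Whether *Cygb* passed the rule there is not known here. The edgeR call of *Cygb* held in all 100 fits that left out 1 mouse of each diet, with log2 fold changes from 0.17 to 0.29.

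*Cygb* stayed past the threshold when depth entered the fit. With the log2 library total as a covariate, its log2 fold change was 0.27 (edgeR, adjusted p = 0.00338). It was sensitive to how gene length was treated. All 10 control hearts had a positive trend of their values on gene length and all 10 IDA hearts a negative one, so that shorter genes were higher in IDA hearts as a class. In the tenth of genes of the length of *Cygb*, from 2038 to 2477 bases, the median log2 fold change was 0.12, with 45.0% called higher and 14.7% lower. In the tenth that holds *Mb*, from 1171 to 1641 bases, the median was 0.27, with 66.8% higher and 4.42% lower. With the trend removed, the log2 fold change of *Cygb* was 0.12 (edgeR, adjusted p = 0.0504), at the edge of the threshold, and with GC content removed as well it was -0.10 (adjusted p = 0.106). The length correction removes any trend on length, whatever its source. Since the trend separated the 2 diets completely, it cannot be told apart from the diet.

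Hearts of nearly equal depth show both genes without any scaling. In 7 pairs of a control and an IDA heart, the library totals differed by less than 1%, and these pairs shared 4 control and 6 IDA hearts. *Mb* was higher in the IDA heart of all 7 pairs, for example 1770 read pairs in control mouse 3 and 1845 in IDA mouse 1. All 6 of these IDA hearts were among the 9 whose *Mb* count lay above every control heart. For *Mb* no other outcome was therefore possible, and the pairs add nothing to that separation. *Cygb* was higher in 6 of 7, for example 874 and 1184 in the same pair, and was lower where control mouse 6 with 1411 met IDA mouse 5 with 1371. These pairs were picked by their totals after the data had been examined, and no test was made on them.

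**Figure D4:**
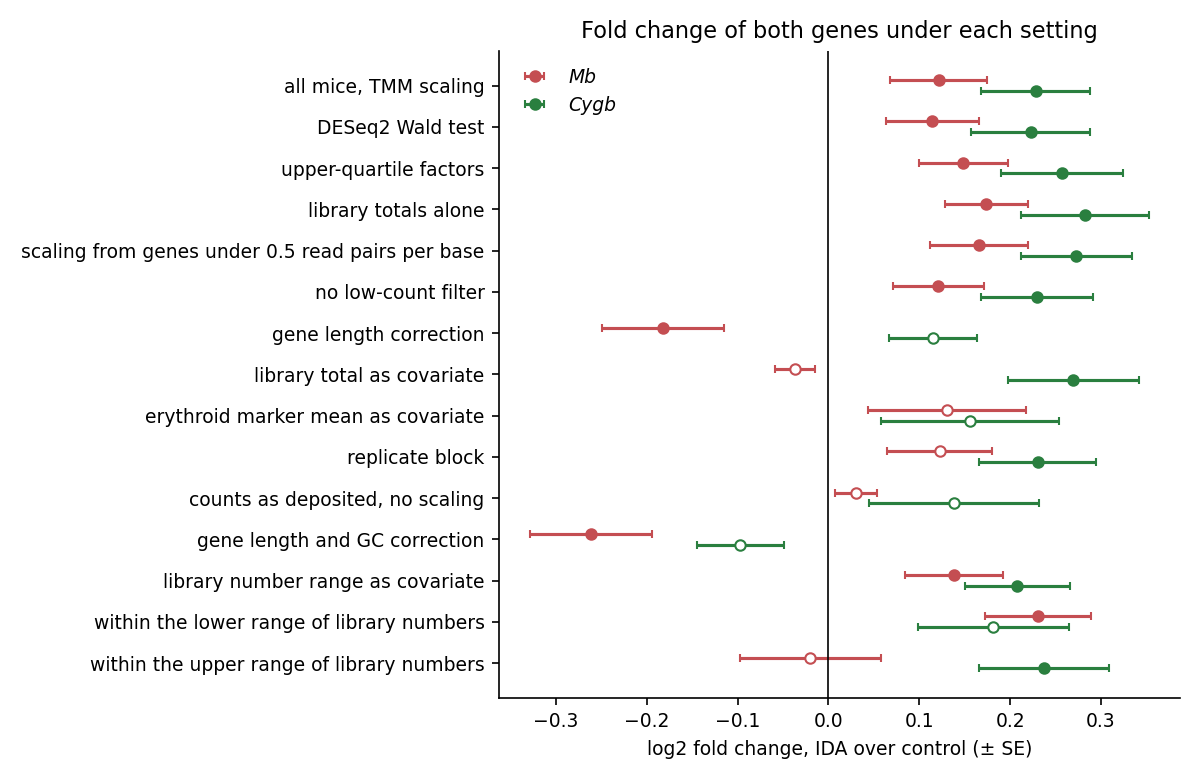
The x axis is the log2 fold change of IDA over control hearts with its SE, each line is 1 way of fitting, filled points passed an adjusted p of 0.05 and open points did not. *Cygb* (green) lies above 0 in every line except the correction for gene length and GC content, where it is -0.10. *Mb* (red) lies below 0 in 4 lines, from -0.02 in the upper range of library numbers to -0.26 with gene length and GC content corrected.

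The difference between the 2 globins did not itself pass a test. In each heart, the log2 CPM of *Mb* minus that of *Cygb* was taken, so that the division by library size drops out. Depth can still enter this value where the 2 counts follow the library total differently. The slopes of log2 count on log2 total were 0.03 for *Mb* and 1.09 for *Cygb* over the control hearts. Over the IDA hearts they were 0.09 and 2.17. Correlations of the counts with the total were computed in only 7 control and 6 IDA hearts, and none passed a test (closing section). The totals of those 6 IDA hearts, 6682177 to 6806901, lay too close together to show whether a count follows depth. These correlations therefore do not show that depth is absent from the value. The log2 CPM of *Mb* minus that of *Cygb* ran from 0.34 to 1.06 in control hearts and from 0.24 to 0.90 in IDA hearts. The means were 0.77 ± 0.22 and 0.66 ± 0.21, a difference of -0.11 (two-sided permutation test, p = 0.281). With the length trend removed, the difference was -0.30 (two-sided permutation test, p = 0.00638). Per kilobase of exon, *Mb* stood at 186 CPM in control and 203 in IDA hearts, and *Cygb* at 58.7 and 68.8. On that scale *Mb* was number 53 and *Cygb* number 1564 of the tested genes.

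The column names carry library numbers that fall into a lower range (5 control and 7 IDA hearts) and an upper range (5 control and 3 IDA hearts), whose meaning is not given in the sources used here. Within the lower range the log2 fold change of *Mb* was 0.23 (edgeR, adjusted p = 0.00348), and within the upper range it was -0.02 (adjusted p = 0.851). The step in its read pairs per base was present in both, at 0.0240 (exact permutation test, p = 0.0240) and 0.0431 (exact permutation test, p = 0.0179). In the lower range, library totals ran from 7890559 to 8960688 in control hearts and from 6682177 to 7833916 in IDA hearts, without overlap. In the upper range they overlapped, from 6797180 to 8316427 in control hearts and from 6805453 to 7702288 in IDA hearts. Whether the ranges differ in the fold change or the step of *Mb* was not tested, nor was the part of depth in these values. *Cygb* had a log2 fold change of 0.18 in the lower range (edgeR, adjusted p = 0.0724) and 0.24 in the upper range (adjusted p = 0.0213). With the range as a covariate, the log2 fold changes were 0.14 for *Mb* (adjusted p = 0.0276) and 0.21 for *Cygb* (adjusted p = 0.00327).

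The genes most like *Cygb* over the 20 hearts were *Emilin1* (r = 0.87), *4930427A07Rik* (r = 0.86), *Ephx1* (r = 0.85), *Carhsp1* (r = 0.85) and *Cd248* (r = 0.84). *Emilin1* encodes a glycoprotein of elastic fibers and *Cd248* the endosialin of fibroblasts and pericytes, while *Ephx1* encodes the microsomal epoxide hydrolase. The likeness rested in part on the hearts that were highest in *Cygb*, control mouse 6 and IDA mouse 4. Without them, r was 0.61 for *Emilin1*, 0.85 for *4930427A07Rik*, 0.69 for *Ephx1*, 0.61 for *Carhsp1* and 0.52 for *Cd248*. *4930427A07Rik* had only 0.00332 read pairs per base, so its r rests on sparse counts.

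The cell types known for *Cygb* did not move as blocks. The counts of these lists stand beside 35% of all tested genes called higher in IDA hearts and 32.5% called lower. Of the 12 fibroblast markers, 5 rose in IDA hearts, 1 fell and 6 did not pass, with a median log2 fold change of 0.13. *Mfap5*, a microfibril protein, rose by 0.45 and *Col1a1*, a chain of type I collagen, by 0.20, while *Pdgfra*, the receptor that marks cardiac fibroblasts, fell by 0.71 on the log2 scale. *Lum*, the proteoglycan lumican, was at -0.04 (edgeR, adjusted p = 0.465). The summed level of the 12 genes lay between 2395 and 2843 CPM in control hearts and between 2453 and 3029 CPM in IDA hearts. Control mouse 6 and IDA mouse 4 were each the highest of their group, as they were in *Cygb*. In the summed pericyte markers, however, each was number 9 of 10 in its group, at 1505 and 1219 CPM. In the summed smooth muscle markers they were number 4 and number 10. Of the 8 pericyte markers, 3 rose and 4 fell, with *Vtn*, vitronectin, at 0.45 and *Kcnj8*, a potassium channel, at 0.35 at one end, and *Abcc9*, the partner of that channel, at -0.72 and *Notch3* at -0.59 at the other. Of the 6 smooth muscle markers 3 rose and 1 fell, of the 7 endothelial markers 3 rose and 3 fell, of the 6 macrophage markers 2 rose and 2 fell, and the 4 adipocyte markers tested did not pass. The part of cell numbers in the level of *Cygb* was not tested.

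The 12 cardiomyocyte markers were all present, from 146 to 3158 CPM on average in control hearts, and their summed level lay between 8289 and 11655 CPM in control hearts and between 7106 and 10498 CPM in IDA hearts. Among them 4 rose, 2 fell and 6 did not pass (all tested genes: 35% higher, 32.5% lower). The number that rose lay between 0 and 7 over the 100 fits that left out 1 mouse of each diet, and was more than 1.5 times off in 48 of them. The rising ones, *Tnni3* (0.15), *Tnnc1* (0.14), *Myl2* (0.14) and *Myl3* (0.14), encode troponins and myosin light chains, and the falling ones were *Ttn*, the giant protein titin, at -0.79 and *Ryr2*, the calcium release channel, at -0.51. With the length trend removed these 6 genes had log2 fold changes of the opposite sign, all past the threshold. In that fit 3179 of the 13590 tested genes were called higher and 3701 lower. Atrial markers were present in all hearts, with sums of 212 to 459 CPM in control hearts and 236.8 to 530 CPM in IDA hearts.

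**Figure D5:**
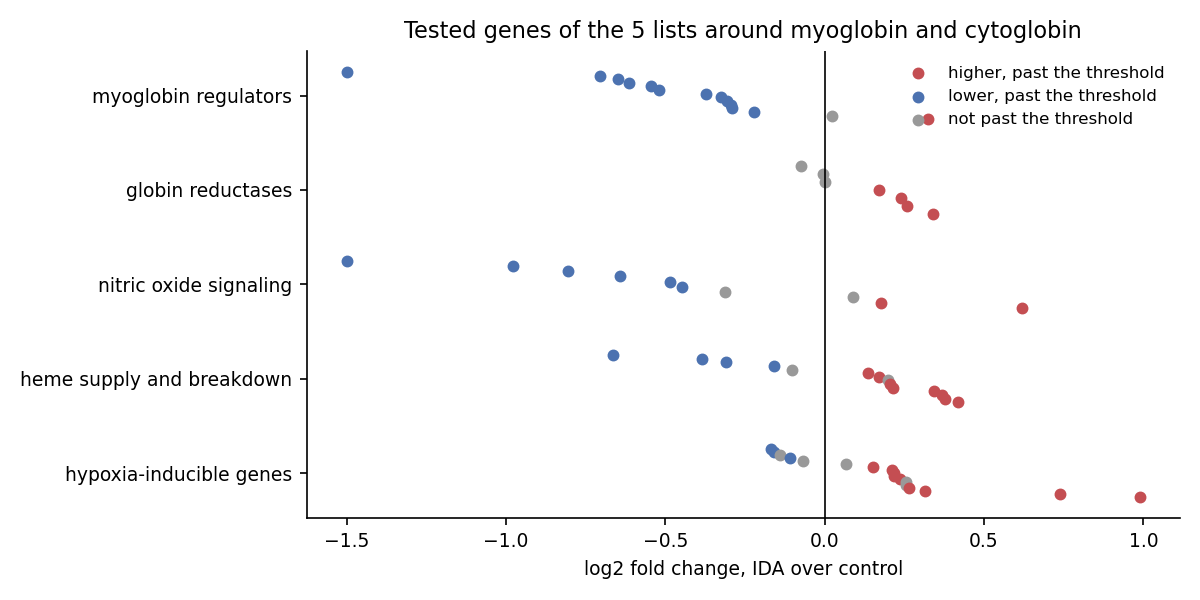
Each point is 1 tested gene of 5 lists, placed by its log2 fold change of IDA over control hearts and colored by whether it passed an adjusted p of 0.05. Most regulators of *Mb* lie to the left of 0 (12 of 14 called lower), most genes of heme supply to the right (8 of 14 called higher), and the nitric oxide genes reach from -1.50 to 0.62. Of all tested genes, 35% were called higher and 32.5% lower.

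Most of the genes known to regulate *Mb* fell in IDA hearts. Of the 14 genes listed, 12 were called lower in IDA hearts, 1 higher and 1 did not pass (all tested genes: 32.5% lower, 35% higher). The median log2 fold change of the list was -0.35 beside 0.02 for all tested genes. *Mef2a*, a MEF2 factor of the heart, went from 162 ± 33.8 to 57.3 ± 23.1 CPM, a log2 fold change of -1.50 (edgeR, adjusted p = 6.9e-07). *Sp1*, a general promoter factor, fell by 0.71 on the log2 scale. *Rcan1*, a target and inhibitor of calcineurin, was the gene that rose, by 0.32 (edgeR, adjusted p = 3.87e-05), and *Nfatc4* was at 0.02 (adjusted p = 0.845). With the length trend removed, 9 were lower and 2 higher, with a median of -0.21, and *Mef2a* was at -1.52. In that fit 3701 of the 13590 tested genes were called lower and 3179 higher.

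The enzymes that can hand electrons to the globins were level or higher. Of the 7 reductases and cytochromes b5 listed, 4 rose in edgeR's test and 3 did not pass (all tested genes: 35% higher, 32.5% lower). Their median log2 fold change was 0.17. The count that fell was 0, in edgeR at the adjusted threshold, in edgeR at an unadjusted p below 0.05 and in DESeq2, and was 1 in 16 of the 100 fits with left-out mice. *Cyb5r3*, the main cytochrome b5 reductase, went from 165 ± 9.02 to 209 ± 12.8 CPM, a log2 fold change of 0.34 (edgeR, adjusted p = 3.92e-07). *Por*, the cytochrome P450 reductase, was higher by 0.26. *Cyb5b*, the cytochrome b5 of the outer mitochondrial membrane, was at -0.08 (adjusted p = 0.0845) and *Cyb5r2* at -0.01 (adjusted p = 0.962). With the length trend removed, *Cyb5r3* and *Por* remained higher, and *Cyb5*, the microsomal cytochrome b5, turned from 0.17 to -0.23, past the threshold on both sides.

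Nitric oxide is a substrate of both globins. Of the 10 tested genes that make it, sense it or end its signal, 2 rose, 6 fell and 2 did not pass (all tested genes: 35% higher, 32.5% lower). *Nos3*, the endothelial nitric oxide synthase, was higher by 0.18 and *Ddah2*, which breaks down an inhibitor of the synthases, by 0.62. The genes that fell included *Gucy1a2*, a subunit of the receptor guanylate cyclase, at -1.50 and *Prkg1*, the cGMP-dependent kinase, at -0.98. The inducible synthase *Nos2* was also lower, at -0.81, and is named here after its value was seen. The median was -0.47, and -0.25 with the length trend removed, where 6 were still lower and 3 higher. In that fit 3701 of the 13590 tested genes were called lower and 3179 higher.

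Heme, which both globins carry, is made and moved by 14 genes on the list. Of these 8 rose, 4 fell and 2 did not pass, with a median of 0.19 (all tested genes: 35% higher, 32.5% lower). *Ppox*, an enzyme of the pathway, was higher by 0.38. *Alas1*, which sets the pace of the pathway outside red cells, went from 282 ± 14.7 to 327 ± 20.7 CPM, a log2 fold change of 0.22. It was outside the rule for naming genes and was chosen after its value was seen. The heme transporters listed as *Mfsd7c* (Flvcr2) and *Mfsd7b* (Flvcr1) were lower, at -0.66 and -0.38. With the length trend removed, 5 genes were higher and 2 lower, with a median of -0.02 (3179 higher and 3701 lower of all 13590 tested genes).

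Of the 17 hypoxia-inducible genes, 9 rose, 3 fell and 5 did not pass, with a median of 0.22 (all tested genes: 35% higher, 32.5% lower). The number that fell lay between 1 and 5 over the left-out pairs of mice, and was more than 1.5 times off in 38 of 100. *Ankrd37*, a target of HIF-1, went from 7.14 ± 0.984 to 14.2 ± 2.71 CPM, a log2 fold change of 0.99, and *Egln3*, an oxygen-sensing prolyl hydroxylase, from 158 ± 16.4 to 264 ± 31.2 CPM, or 0.74. *Hk2*, a hexokinase, and *Kdm3a*, a histone demethylase, were at -0.17 and -0.16, and both were above 0 with the length trend removed (0.12 and 0.08). In that fit 8 of the 17 were higher, and 0 were lower at the adjusted threshold or at an unadjusted p below 0.05. Of all 13590 tested genes, the same fit called 3179 higher and 3701 lower at the adjusted threshold.

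The other globins gave little to compare. Of the 14 listed, 13 were found in the table and 1 was tested, the adult beta globin listed as *Beta-s* (RefSeq *Hbb-bs*). It went from 40.2 ± 4.18 to 48.8 ± 5.46 CPM, a log2 fold change of 0.28 (edgeR, adjusted p = 0.000969), which was -0.13 with the length trend removed (adjusted p = 0.190). *Hba-a1*, *Hba-a2*, *Hbb-b2* and *Hbb-bh2* were listed at 0 in all 20 hearts. The adult globin genes have near-identical copies between which reads can be split or lost, so their values are uncertain. *Ngb*, the globin of neurons, averaged 0.198 and 0.230 CPM in control and IDA hearts, and *Adgb*, androglobin, 0.192 and 0.200 CPM, both too low to be tested. *Mb* and *Cygb* were thus the globins of these hearts with counts that allowed a comparison in every mouse, together with *Beta-s*.

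Markers of red cell precursors also moved with the diet. Of the 5 erythroid markers tested, 4 rose and 1 fell (all tested genes: 35% higher, 32.5% lower), with *Slc4a1*, the anion exchanger of the red cell, at 4.04. The summed level of the erythroid markers lay between 146 and 211 CPM in control hearts and between 207 and 683 CPM in IDA hearts. With the mean of the tested markers as a covariate, the log2 fold changes were 0.13 for *Mb* (edgeR, adjusted p = 0.213) and 0.16 for *Cygb* (adjusted p = 0.183). The SE rose from 0.05 to 0.09 for *Mb* and from 0.06 to 0.10 for *Cygb*. That mean ran from 3.26 to 4.11 log2 CPM in control hearts and from 4.34 to 6.56 in IDA hearts. It separated the diets completely, so this fit cannot tell the covariate apart from the diet. Skeletal muscle is another source of *Mb*. Of its markers, *Acta1* (249.1 CPM in control and 268 CPM in IDA hearts) and *Ckm* (181 and 197 CPM) are also made by the heart, and are named here after their values were seen. The fast myosins *Myh1*, *Myh2* and *Myh4* averaged between 0.0248 and 0.823 CPM in either diet and were not tested, and of the 6 tested skeletal markers 2 rose and 4 did not pass.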

How the data were processed

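RNA-seq of 20 mouse hearts (10 control, 10 IDA, grouped by the labels) was analysed. The authors selected poly-A RNA, mapped 75-base paired reads with STAR to the mm10 genome, used samtools to take out PCR duplicates, and assigned read pairs to exons by gene, ignoring strand (featureCounts, version 1.4.5-p1). The deposited values are these counts, not normalized, for 23420 genes, beside each gene's exonic length. The other unit used here, read pairs per exonic base, is the deposited count divided by that length.

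The 13590 genes that reached 1 CPM in 10 or more mice entered edgeR's quasi-likelihood test (version 4.0.16, R 4.3.3) with TMM factors, and with DESeq2 (version 1.42.0), with Benjamini-Hochberg adjustment over all tested genes. Log2 CPM used a prior count of 2. Intervals of log2 fold changes are the estimate ± its SE times the normal quantile, at 95%. Single values were compared by permutation tests (100000 resamples, or all splits where a group had fewer than 10 mice). Fits were tested on simulated data (13590 genes, 200 of them changed), where edgeR made 10 false calls without and 57 with a simulated length trend and its correction, so length-corrected calls are less certain. The length correction removed from each mouse a loess trend (span 0.5) on log2 exonic length. List genes absent under their symbol were sought under RefSeq synonyms. Genes named are both members, the 2 highest and 2 lowest fold changes of each list, the 5 genes most correlated with each member, and the 5 densest genes of at least 200 bases. A few genes that this rule would name are not reported here. The members and the lists were chosen with earlier results of these data known, and the alternatives are given in the closing section. Totals of 6682177 to 8960688 read pairs per mouse give a gene at 1 CPM few read pairs, and the counts here cover both members in every mouse. Read pairs carry no molecular identifiers.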

Additional observations from a re-analysis of the deposited data

Results flagged for a closer look

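In 8 groups of 10 hearts (counts and CPM of *Mb* and *Cygb* in each diet), the gap between the most extreme heart and its neighbor was compared with the range of the group, and chance alone would mark about 1 group in 20. The *Cygb* CPM of control mouse 6, 175, lay 0.506 of the range above the next heart at 146. The *Cygb* CPM of IDA mouse 4, 195, lay 0.511 of the range above the next heart at 171. Both hearts also had the highest summed fibroblast markers of their diet, 2843 and 3029 CPM. In the summed pericyte markers each was number 9 of 10 in its diet, at 1505 and 1219 CPM. Without both mice the log2 fold change of *Cygb* was 0.22 (edgeR, adjusted p = 7.22e-05) and that of *Mb* was 0.11 (adjusted p = 0.0672).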

How the results depend on the processing

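The log2 fold change of *Mb* kept its direction and its call with DESeq2, upper-quartile factors, library totals alone, scaling from genes under 0.5 read pairs per base and no low-count filter (0.11 to 0.17). It was -0.18 with the length correction, -0.037 with the library total as covariate, and, among settings chosen after seeing the data, -0.26 with length and GC content corrected and -0.020 in the upper range of library numbers. It lost its call at 0.13 with the erythroid covariate, which separates the diets completely. On counts without scaling it was 0.031 and not past the threshold (edgeR, adjusted p = 0.266). The same counts per base did pass the permutation test (p = 0.00025), which measures spread differently. Leaving out 1 mouse of each diet gave log2 fold changes of 0.076 to 0.16, with 60 of 100 not past the threshold in edgeR. The lost calls included all 10 fits without control mouse 8 and between 7 and 9 of 10 without each of control mice 4, 5, 6, 7, 9 and 10. *Cygb* lost its call at 0.12 with the length correction, 0.16 with the erythroid covariate, 0.14 without scaling (added later) and 0.18 in the lower range (added later), and was -0.10 with length and GC content corrected (added later). The causes were not tested.

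Replicate numbers did not pair the mice: same-numbered hearts correlated between -0.278 and 0.264 in their deviations, and 3 of 10 control hearts were closest to the IDA heart of their number. With the number as a block, *Mb* stayed at 0.12 but was not past the threshold (edgeR, adjusted p = 0.0754), *Cygb* was at 0.23 (adjusted p = 0.00597), and 8912 genes were called.

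Read pairs per base of *Mb* differed by 0.0272 to 0.0360 in all left-out pairs, all past the threshold by the exact test. Those of *Cygb* differed by 0.0169 to 0.0726, with 4 of 100 past it, and by -0.00344 in the lower range (exact permutation test, p = 0.949) and 0.0936 in the upper (exact permutation test, p = 0.0536). The difference of *Mb* minus *Cygb* was -0.30 with the length correction, 0.047 in the lower range (exact permutation test, p = 0.720), -0.26 in the upper range (exact permutation test, p = 0.0536), and -0.18 to -0.03 over left-out pairs, none past the threshold.

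Library totals fell apart at a gap within each diet (3 and 7 control hearts, 6 and 4 IDA hearts), so correlations of counts with totals were computed only within the 7 and the 6 and not over all 10 as planned. The slopes in the report span all 10 hearts of a diet and the gap in their totals, as a description. Pearson's r was 0.59 for *Mb* (exact permutation p = 0.165, rho 0.54, exact permutation p = 0.236) and 0.19 for *Cygb* (exact permutation p = 0.645, rho 0.32, exact permutation p = 0.498) in control hearts, and 0.39 (exact permutation p = 0.479, rho 0.09, exact permutation p = 0.919) and 0.72 (exact permutation p = 0.101, rho 0.77, exact permutation p = 0.103) in IDA hearts, with adjusted p of at least 0.330 for r over the 4 relations. Without the 2 farthest totals r was -0.16, -0.44, 0.37 and 0.48. Leaving out each control mouse gave 0.0156 to 0.860 for *Mb* and -0.0997 to 0.810 for *Cygb*. IDA hearts were too few to leave 1 out, and their totals, 6682177 to 6806901, lay too close together to show whether a count follows depth.

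Of all tested genes 9177 were called, 4761 higher and 4416 lower. The count was 6880 with gene length corrected (3179 higher, 3701 lower) and 5484 with GC content corrected as well (2318 higher, 3166 lower). It was 7770 on counts without scaling (2868 higher, 4902 lower), and 8572 to 9379 over left-out pairs. Of 384 list counts under the other settings, 311 were within 1.5 times the reported count and 73 were not.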
